A study of Mus musculus with 12 samples.

Results

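The genes examined here encode 9 enzymes and partners that modify the wobble uridine (U34) of cytosolic tRNAs beside the Elongator complex, or that regulate Elongator. They were chosen by name as Alkbh8, Trmt112, Ctu1, Ctu2, Urm1, Mocs3, Nfs1, Kti12 and Dph3, and all 9 of the 9 are among the 24421 gene rows of the deposited table. All 9 passed the filter on low counts in both fractions, as did 11238 genes in all. Total RNA depleted of ribosomal RNA and ribosome-protected fragments (RPF, the pieces of mRNA shielded from nuclease by a ribosome) had been sequenced from B16 cells, a mouse melanoma line. All cells carried a lentiviral shRNA, which was either non-relevant (shCTL in the labels, written shControl here) or a single shRNA against Elp3 (sh309, written shElp3). Each of the 4 groups, RNA shControl, RNA shElp3, RPF shControl and RPF shElp3, had 3 libraries lettered A, B and C. An RPF and an RNA library that share shRNA and letter were taken to come from 1 of 6 cultures, a reading of the letter. Separate transductions are not stated, so a p-value reflects only how these cultures vary, which may be technical. With 1 line and 1 Elp3 shRNA, effects of this shRNA other than on Elp3 cannot be told apart from loss of Elp3.

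Elongator, whose catalytic subunit is ELP3, begins the modification of U34 by adding a carboxymethyl group. ALKBH8, held in an active form by TRMT112, methylates that group, and the CTU1-CTU2 pair replaces an oxygen of the base with sulfur in the tRNAs that read lysine, glutamate and glutamine codons. The sulfur is taken from cysteine by NFS1, passed on by MOCS3 and carried by URM1, a protein of the ubiquitin fold that is also attached to other proteins. KTI12 and DPH3 are proteins known from yeast to be needed for Elongator activity, and DPH3 also supplies electrons for diphthamide synthesis on elongation factor EEF2. ELP3 and the CTU enzymes have been tied to drug resistance and survival of BRAF-mutant human melanoma cells.

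Depth ran from 7914369 to 16527864 counts in RNA libraries and from 7619269 to 10998570 in RPF libraries. Levels are given as CPM, which are counts relative to the reads on the filtered genes of a library, scaled within a fraction by TMM, and are compared between samples and not between genes, since the table gives no transcript lengths. Elp3 itself, the check of the labels, was at 93.9, 72.1 and 70.0 CPM in shControl RNA (A, B, C) and 41.3, 35.3 and 35.4 in shElp3 RNA, so its groups did not overlap. Its log2 fold change was -1.08 (SE 0.22, edgeR adjusted p = 0.0831) in RNA and -0.93 (SE 0.15, edgeR adjusted p = 0.0249) in RPF. With the letter as a block the RNA value was called (-1.07, edgeR adjusted p = 0.00098), and the RPF call ended without any 1 library other than shControl A (adjusted p of 0.0694 to 0.136). All 7 melanocyte lineage markers passed the filter, with a summed level of 8821 to 11767 CPM in shControl RNA and 5865 to 7399 in shElp3 RNA. Their summed RPF level was 14539 to 33940 CPM in shControl and 11375 to 20252 in shElp3. Of the 4 leukocyte markers 1 passed (Lyz2), of the 3 fibroblast markers 1 (Col1a1), with summed RNA levels of at most 3.78 and 25.0 CPM, and of the 3 epithelial markers 0 did, with at most 1.38. The summed fibroblast markers were higher in shElp3 RPF (13.0 to 18.6 CPM) than in shControl RPF (5.10 to 6.36), and almost all of either sum was Col1a1. Col1a2 was at a mean of 0.12 CPM in shElp3 RPF and 0.13 in shControl RPF, and Dcn had 0 reads in both. The part of any marker shift in the values below was not tested. In RNA the letter A libraries stood apart from B and C, and in RPF they were less clearly set apart. Where the call of a member changed without letter A in either fraction, this is given below.

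The upstream sequence is shown for Alkbh8 and Mocs3, the members with the largest RNA differences in either direction, as the 250 bases before the RefSeq start (GRCm38.p6, plus strand, chr9:3334981-3335230 and chr2:168230372-168230621). Capitals mark matches to any of 8 short motifs searched on both strands, none of which contains another.
Alkbh8: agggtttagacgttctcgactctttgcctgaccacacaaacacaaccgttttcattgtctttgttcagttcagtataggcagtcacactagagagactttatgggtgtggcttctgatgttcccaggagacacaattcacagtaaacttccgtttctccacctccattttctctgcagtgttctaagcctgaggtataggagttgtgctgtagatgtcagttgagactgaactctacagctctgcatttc
Mocs3: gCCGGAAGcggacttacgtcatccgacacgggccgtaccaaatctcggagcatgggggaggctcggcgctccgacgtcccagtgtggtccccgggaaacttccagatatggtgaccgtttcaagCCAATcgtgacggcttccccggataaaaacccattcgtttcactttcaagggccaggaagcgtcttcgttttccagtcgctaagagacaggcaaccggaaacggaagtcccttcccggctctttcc
The Alkbh8 window held 4 CpG dinucleotides, 44.8% G or C and no match, and the Mocs3 window held 23 CpG, 58.0% G or C, 1 ETS core (CCGGAAG) and 1 CCAAT box (CCAAT). Over the 32817 promoter windows of the same length in the RefSeq table the medians were 6 CpG and 52.4% G or C. An ETS core lay in the windows of 5 of the 9 members (Urm1, Mocs3, Nfs1, Kti12 and Dph3) and in 6.9% of all windows, and a CCAAT box in 4 of 9 against 33.8%. The GC box (GGGCGG) was in 3 of 9 against 32.7%, and the E-box (CACGTG, 6.02%) and the TATA box (TATAAA, 12.4%) were each in 1 of 9, that of Dph3. The NRF1 core (0.777%), the CRE (TGACGTCA, 1.55%) and the ATF4 element (TGATGCAA, 0.792%) were in 0 of 9. Dph3 had more than 1 window (starts 32085643 and 32085237), and a match in any of them was counted. The shares are per window, over all windows and not only those of genes tested here. These matches describe the letters of the windows only.

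Most members lie head to head with another gene. For 6 of 9 a protein-coding gene on the opposite strand starts within 500 bases of the member's start, against 14.5% of 9026 protein-coding genes tested in RNA whose strand is in the RefSeq promoter table. Ctu2 (chromosome 8, 122476068 to 122483092, mm10 coordinates of RefSeq GRCm38.p6) starts 6 bases from Rnf166, and Dph3 (chromosome 14, 32080517 to 32085692) starts 36 bases from Oxnad1. Nfs1 (chromosome 2, 156123637 to 156144202) starts 49 bases from Romo1, and Ctu1 (chromosome 7, 43671971 to 43678301) starts 73 bases from Siglece. Mocs3 (chromosome 2, 168230622 to 168232303) starts 243 bases from Dpm1, and Trmt112 (chromosome 19, 6909698 to 6911028) starts 408 bases from Prdx5. The other members are Alkbh8 (chromosome 9, 3335231 to 3391154), Urm1 (chromosome 2, 29827389 to 29844996) and Kti12 (chromosome 4, 108847857 to 108849412), whose whole span of 1556 bases lies inside Txndc12 on the same strand. Trmt112 overlaps Prdx5 by 409 bases and Esrra by 52, and Ctu2 overlaps Piezo1 by 1395. The strand setting of the counting is not given in the sources used here, so reads in these overlaps may be assigned to either gene or to none. Ctu1 overlaps Siglece by 74 bases, Nfs1 overlaps Romo1 by 50, and the snoRNA gene Gm24918 (130 bases) lies inside Alkbh8. The levels of Kti12, Trmt112, Ctu2, Ctu1, Nfs1 and Alkbh8 are uncertain to the extent of these overlaps.

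**Figure D1:**
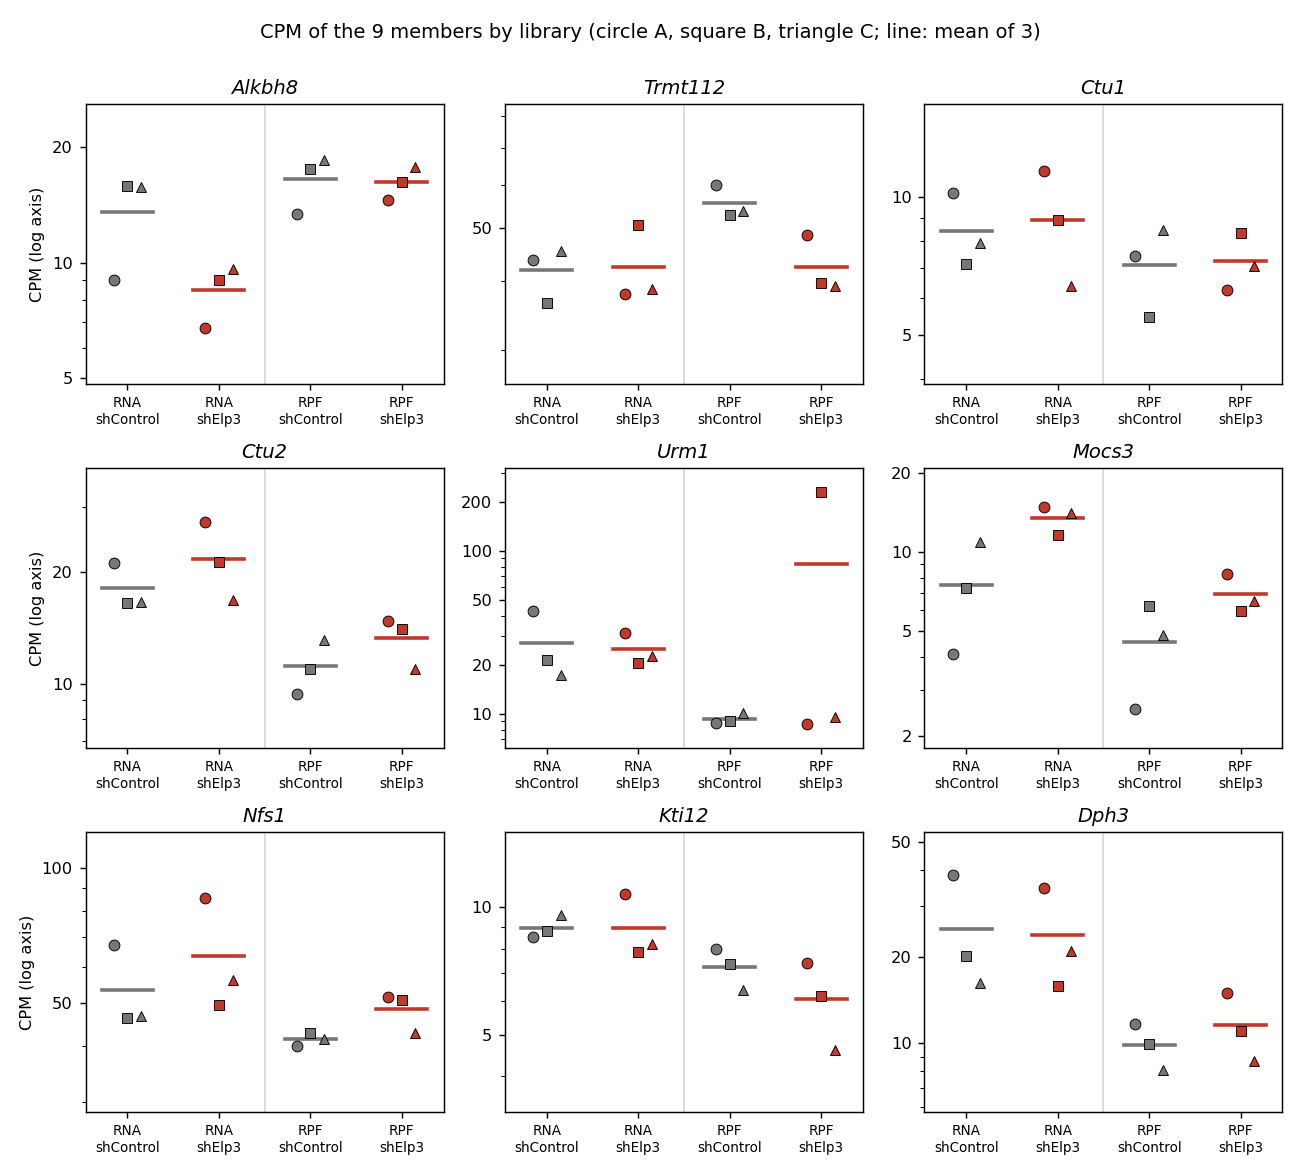
CPM on a log axis for each of the 9 genes in the 12 libraries, set out by fraction and shRNA. Points are libraries (circle A, square B, triangle C) and lines are means of 3. Alkbh8 points are lower in shElp3 RNA than in shControl RNA of the same letter, Mocs3 points are higher, and 1 Urm1 point at 230 CPM stands far above the other RPF points.

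The RNA comparison asks whether transcripts of the other U34 enzymes differ in level when Elp3 is depleted. Of the 9 members 0 were called by edgeR, where 1.14% of 12274 genes were called, and 0 had an unadjusted p under 0.05 (12.4% of all genes had one). DESeq2 also called 0 of the 9, but the share of all genes it called was not computed in any comparison. The members' median log2 fold change was 0.02, beside -0.02 over all genes tested, with 5 values above 0 and 4 below. The range ran from -0.68 (Alkbh8) to 0.86 (Mocs3), and leaving out letter A or adding the letter as a block brought those end points past the threshold one at a time, as given below. Only Mocs3 had groups that did not overlap, 1 of 9, where 19.8% of genes tested did so.

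The methyl step was examined first. Alkbh8 RNA was at 9.02, 15.9 and 15.8 CPM in shControl A, B and C and at 6.78, 9.03 and 9.62 in shElp3, means of 13.5 ± 3.92 and 8.48 ± 1.501 (SD, n = 3). Each shElp3 library was below the shControl library of its letter, but shControl A lay among the shElp3 values, so the groups overlapped. The log2 fold change was -0.68 (SE 0.31, edgeR adjusted p = 0.448), and within letters A, B and C the log2 ratio was -0.41, -0.81 and -0.71. With letters B and C only, Alkbh8 was called lower (-0.76, SE 0.20, edgeR adjusted p = 0.0144, where 19.4% of genes were called), and over all alternatives its adjusted p was 0.0144 to 0.825. Trmt112 RNA was at 43.7, 36.5 and 45.5 CPM in shControl and 37.9, 50.7 and 38.8 in shElp3, with overlapping groups. Its log2 fold change was 0.02 (SE 0.22, edgeR adjusted p = 0.988), and the sign differed between letter B (0.48) and letters A (-0.20) and C (-0.23).

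Among the thiol-transfer genes, Ctu1 RNA was at 10.2, 7.15 and 7.93 CPM in shControl and 11.4, 8.91 and 6.39 in shElp3 (log2 fold change 0.08, SE 0.31, edgeR adjusted p = 0.963). Ctu2, which codes for the partner of CTU1 in the thiolase, was at 21.2, 16.5 and 16.6 CPM in shControl and 27.3, 21.3 and 16.8 in shElp3. Its log2 fold change was 0.27 (SE 0.26, edgeR adjusted p = 0.789), positive within each letter at 0.36, 0.37 and 0.02. Both genes thus had overlapping groups, and for both the letter A library was the highest of its group.

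The sulfur relay held the most positive RNA fold change among the members. Mocs3 RNA was at 4.10, 7.33 and 10.97 CPM in shControl and 14.9, 11.6 and 14.0 in shElp3, means of 7.47 ± 3.44 and 13.5 ± 1.68 (SD, n = 3). Every shElp3 library was above every shControl library, and the shControl libraries spread over more than the shElp3 ones. The log2 fold change was 0.86 (SE 0.37, edgeR adjusted p = 0.413), with log2 ratios of 1.86, 0.67 and 0.36 within A, B and C. With the replicate letter as a block it was called higher (0.94, SE 0.29, edgeR adjusted p = 0.0492, where 12.2% of genes were called), and over all alternatives its value was 0.50 to 1.25 with an adjusted p of 0.0492 to 0.826. Dpm1, which faces Mocs3 across 242 bases, had 13 to 38 reads per RNA library and was at 0.39 on the log2 scale (SE 0.41, edgeR adjusted p = 0.811). It had 0 to 2 reads per RPF library. Dpm1 lies inside the lncRNA gene Gm20716 (168180965 to 168230379) on the same strand, so its reads may be assigned to either gene or to none.

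Nfs1 RNA was at 67.3, 46.2 and 46.7 CPM in shControl and 85.6, 49.4 and 56.2 in shElp3, with the letter A library the highest of each group. Its log2 fold change was 0.26 (SE 0.29, edgeR adjusted p = 0.824) and its within-letter ratios were 0.35, 0.10 and 0.27. Urm1 RNA was at 42.9, 21.3 and 17.4 CPM in shControl and 31.4, 20.4 and 22.7 in shElp3 (log2 fold change -0.13, SE 0.38, edgeR adjusted p = 0.950). Its groups overlapped, and the within-letter ratio was -0.45 in A, -0.06 in B and 0.38 in C.

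The Elongator regulators were near 0 in RNA. Kti12 RNA was at 8.50, 8.80 and 9.59 CPM in shControl and 10.7, 7.84 and 8.20 in shElp3, and the fitted log2 difference was -0.0016 (SE 0.25, edgeR adjusted p = 0.999). Dph3 RNA was at 38.5, 20.2 and 16.2 CPM in shControl and 34.7, 15.8 and 20.9 in shElp3, and the fitted log2 difference was -0.07 (SE 0.42, edgeR adjusted p = 0.980). For Dph3 letter A was the highest of both groups, at more than the spread between B and C.

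**Figure D2:**
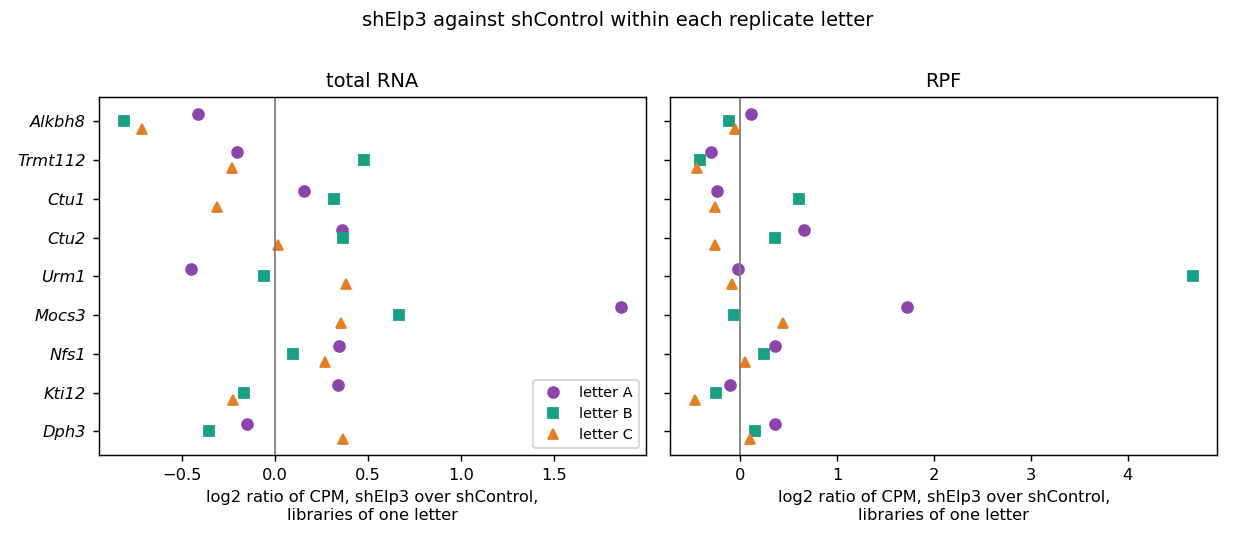
Log2 ratio of CPM, shElp3 over shControl (horizontal axis), for the libraries of letter A (circle), B (square) and C (triangle), in total RNA (left) and RPF (right). Alkbh8 lies below 0 and Mocs3 above 0 in RNA for all 3 letters, Trmt112 lies below 0 in RPF for all 3, and Urm1 in RPF reaches 4.67 within letter B.

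The footprint comparison asks whether ribosomes on these mRNAs differ in number between the shRNAs, relative to the other mRNAs. Of the 9 members 0 were called by edgeR, where 4.83% of 11343 genes were called, and 2 had an unadjusted p under 0.05 (Trmt112 and Urm1, where 23.1% of all genes had one). DESeq2 called 0 and returned no p for Urm1. The median log2 fold change was 0.22, beside -0.01 over all genes tested, with 6 values above 0 and 3 below. Groups did not overlap for 1 of 9, Trmt112, where 30.8% of genes tested did so.

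Trmt112 RPF was at 59.9, 52.9 and 53.7 CPM in shControl and 48.6, 39.7 and 39.3 in shElp3, means of 55.5 ± 3.88 and 42.5 ± 5.26 (SD, n = 3). Each of the 3 shElp3 libraries was lower than all of the shControl libraries. The log2 fold change was -0.38 (SE 0.15, edgeR adjusted p = 0.166), and the log2 ratios within A, B and C were -0.30, -0.41 and -0.45. Without letter A it was called lower (-0.43, SE 0.13, edgeR adjusted p = 0.0328, where 21.7% of genes were called), and its adjusted p lay between 0.0328 and 0.443 over all alternatives. Alkbh8 RPF was at 13.4, 17.6 and 18.5 CPM in shControl and 14.6, 16.3 and 17.8 in shElp3 (log2 fold change -0.03, SE 0.19, edgeR adjusted p = 0.945). Libraries A, B and C kept the same order in both Alkbh8 groups, and the within-letter ratios were 0.11, -0.11 and -0.05.

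Urm1 footprints were set by 1 library. They were at 8.82, 9.04 and 10.1 CPM in shControl A, B and C and at 8.66, 230 and 9.55 in shElp3, where shElp3 B holds 2230 reads and the other RPF libraries 63 to 111. That library is 22.7 times the next highest, and its RNA level (20.4 CPM) is the lowest of the shElp3 RNA group. With all libraries the log2 fold change was 3.15 (SE 1.21, edgeR adjusted p = 0.170), and without shElp3 B it was -0.03 (SE 0.24, edgeR adjusted p = 0.965). With letters B and C only, Urm1 passed the threshold (3.64, edgeR adjusted p = 0.0200) on the strength of that same library, and DESeq2 returned no p for it. Among the 11343 genes tested in RPF, Urm1 was the only gene of shElp3 B at 100 reads or more and over 10 times every other RPF library, while shElp3 C had 2 such genes, and the 4 remaining RPF libraries and all 6 RNA libraries had 0. The table gives 1 count per gene and no read positions, so where on Urm1 these reads lie was not examined.

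The remaining members overlapped between groups in footprints. Mocs3 RPF was at 2.52, 6.26 and 4.83 CPM in shControl and 8.28, 5.97 and 6.54 in shElp3 (log2 fold change 0.59, SE 0.34, edgeR adjusted p = 0.345), on 18 to 66 reads per library. Its difference was largest within letter A, at a log2 ratio of 1.72 beside -0.07 in B and 0.44 in C, and with letters B and C only the value was 0.18 (SE 0.26). Nfs1 RPF was at 40.1, 42.9 and 41.5 CPM in shControl and 51.5, 50.8 and 42.9 in shElp3 (0.22, SE 0.14, edgeR adjusted p = 0.373). Ctu2 RPF was at 9.38, 10.9 and 13.1 CPM in shControl and 14.8, 14.0 and 10.9 in shElp3 (0.24, SE 0.21, edgeR adjusted p = 0.535), with letter C going the other way from A and B. Ctu1 RPF was at 7.42, 5.47 and 8.47 CPM in shControl and 6.28, 8.34 and 7.08 in shElp3 (0.02, SE 0.25, edgeR adjusted p = 0.962). Kti12 RPF was at 7.98, 7.35 and 6.38 CPM in shControl and 7.41, 6.18 and 4.61 in shElp3 (-0.25, SE 0.25, edgeR adjusted p = 0.589), lower within each letter. Dph3 RPF was at 11.6, 9.94 and 8.11 CPM in shControl and 14.9, 11.02 and 8.69 in shElp3 (0.23, SE 0.26, edgeR adjusted p = 0.644), higher within each letter.

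**Figure D3:**
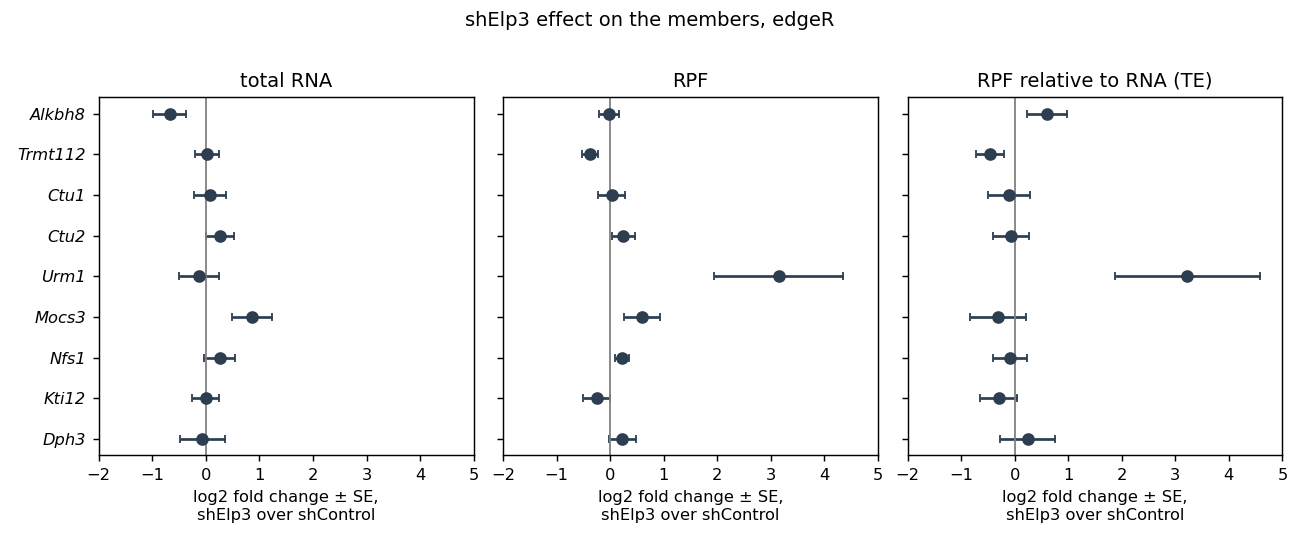
Log2 fold change of shElp3 over shControl with its edgeR SE (horizontal axis) for each gene in total RNA (left), in RPF (middle) and for RPF relative to RNA (right). Values for Ctu1, Ctu2, Nfs1, Kti12 and Dph3 lie within 0.31 of 0 in all 3 panels, and the wide Urm1 bar in RPF comes with the single library at 230 CPM.

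Translational efficiency (TE), footprints relative to the RNA of the same gene, was tested by an interaction term (fraction by shRNA) in a fit of all 12 libraries. Of the 9 members 0 were called by edgeR or DESeq2, where 0% of 11238 genes were called by edgeR. DESeq2 returned no p for Urm1 here either. An edgeR unadjusted p under 0.05 was found for 1 member (Urm1) and for 0.552% of all genes. That share is below the 0.05 that a calibrated test gives with no effects, so this fit without a block was conservative. Its 0 calls therefore do not show that TE was unchanged. Alkbh8 was the member whose cultures separated. Its log2 ratio of RPF over RNA CPM, with the 12 libraries scaled together, was 0.75, 0.29 and 0.35 in shControl A, B and C and 1.22, 0.92 and 0.98 in shElp3, with no overlap between the groups. The interaction was 0.60 (SE 0.37, edgeR unadjusted p = 0.127, adjusted p = 1.00), which did not pass. It was 0.57 with the letter as a block and 0.58 with the culture as a block (edgeR unadjusted p of 0.0524 and 0.0428). The shares of all genes with an unadjusted p under 0.05 in the blocked fits were not computed, and 0.552% is not their share. Over all alternatives, by edgeR or DESeq2, its adjusted p was at least 0.999. Alkbh8 was the only member of the 9 with such groups, where 7.1% of 11182 genes with counts in every library had them. Trmt112 went the other way, from 0.63, 0.67 and 0.36 in shControl to 0.47, -0.28 and 0.11 in shElp3, with overlap (interaction -0.46, SE 0.27, edgeR unadjusted p = 0.111, adjusted p = 1.00). The Urm1 interaction of 3.22 (SE 1.35, edgeR unadjusted p = 0.0341, adjusted p = 1.00) was -0.07 without the shElp3 B culture, and 1.52 with the letter as a block (edgeR unadjusted p = 0.181). The other 6 interactions ran from -0.31 (Mocs3) to 0.24 (Dph3).

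The same ratio was read within shControl cells to place each mRNA's footprints against its own RNA, relative to the average gene. The counted feature is not given, so how far such a ratio depends on the parts of an mRNA counted was not tested. Here 2 of 9 members were called by edgeR, 1 higher and 1 lower, where 36.5% of 11238 genes were called, so the members' share does not exceed that of all genes. Trmt112 was higher in footprints (log2 ratio 0.55, SE 0.19, edgeR adjusted p = 0.0380), from RNA at 41.9 ± 4.76 and RPF at 55.5 ± 3.88 CPM (SD, n = 3). Dph3, the small electron donor, was lower (-1.19, SE 0.37, edgeR adjusted p = 0.0259), at -1.55, -0.88 and -0.89 in the 3 shControl cultures and below 0 in all 6 cultures. Both calls ended without any 1 of the shControl cultures A (adjusted p = 0.0637 and 0.0598), B (0.189 and 0.0839) or C (0.0987 and 0.0675). With letters B and C only, so without A in either shRNA, both were called (0.53 and -0.86, edgeR adjusted p = 0.0114 and 0.0042). The share of all genes called in that setting is not given here. Ctu2 (-0.56, SE 0.24, edgeR adjusted p = 0.0839) and Mocs3 (-0.56, SE 0.38, edgeR adjusted p = 0.266) were below 0 in all 6 cultures and Alkbh8 (0.43, SE 0.26, edgeR adjusted p = 0.214) was above 0 in all 6. With the culture as a block, where 47% of genes were called, Ctu2 was called lower (-0.55, SE 0.19, edgeR adjusted p = 0.0471). In that setting Trmt112 and Dph3 stayed called (edgeR adjusted p = 0.0356 and 0.0060). Trmt112 and Dph3 were also called with the letter as a block, by DESeq2, with RLE scaling and with no filter. The shares of all genes called in those settings are not given here. Urm1 was at -2.11, -1.10 and -0.67 in shControl and at -1.74, 3.56 and -1.15 in shElp3, where 3.56 is the culture of the library with 2230 reads.

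**Figure D4:**
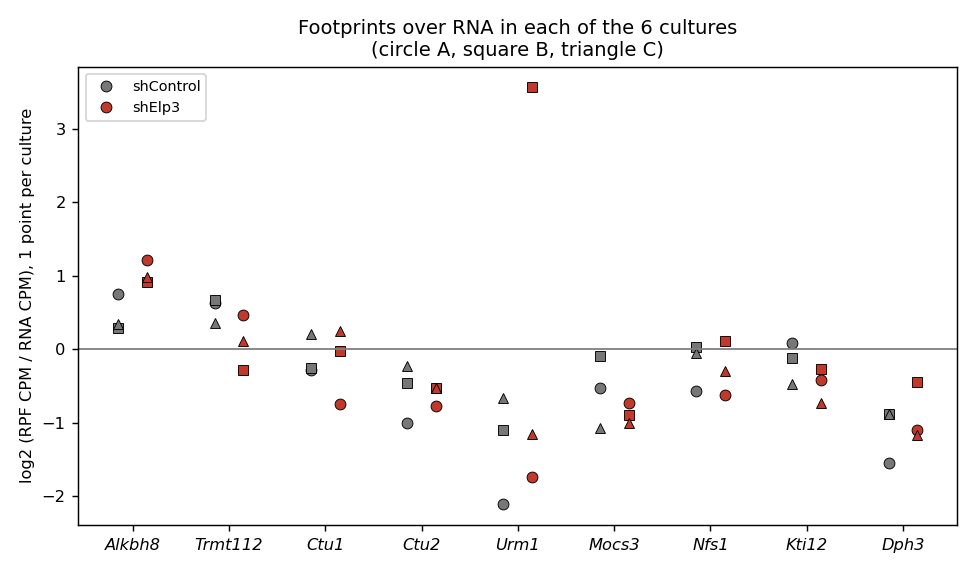
Log2 ratio of RPF over RNA CPM (vertical axis, all 12 libraries scaled together) for each gene, 1 point per culture, with shControl in grey and shElp3 in red and letters as circle (A), square (B) and triangle (C). The 3 shElp3 Alkbh8 points, 0.92 to 1.22, lie above the 3 shControl points, 0.29 to 0.75, and all 6 Dph3 points lie below 0.

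Members were also set beside one another across libraries. After each fraction was centred on its own mean, Nfs1 and Dph3 had the highest correlation of log2 CPM among pairs of members (Pearson r = 0.82 over 12 libraries), followed by Nfs1 and Ctu2 (0.80). Alkbh8 was opposite to Nfs1 (-0.74) and Dph3 (-0.63), and had no member above 0 beside it. With letters B and C only, over 8 libraries, the values were 0.65 for Nfs1 and Dph3, 0.33 for Nfs1 and Ctu2, -0.65 for Alkbh8 and Nfs1 and -0.08 for Alkbh8 and Dph3. The libraries share letters, fractions and shRNAs, and these values are given as a description. Among 11237 other genes the closest pattern to Nfs1 was that of Wdr73 (0.98) and Lyrm2 (0.96), to Dph3 Fpgt (0.96) and Rae1 (0.96), and to Ctu2 Stxbp2 (0.97) and Gtf2h4 (0.96). Alkbh8 was closest to Fermt2 (0.96) and Cnot1 (0.94), Mocs3 to Cml3 (0.96) and Neurl4 (0.96), and Trmt112 to Spata5l1 (0.90) and Ppp1r12c (0.87). Ctu1 (Scrn2, 0.87, and Bvht, 0.86), Kti12 (Mcrs1, 0.84, and Apba3, 0.83) and Urm1 (B230208H11Rik, 0.80, and Kif6, 0.76) had lower best values. Without the shElp3 B footprint library, the one at 230 CPM, the Urm1 values were 0.51 and 0.56 over 11 libraries. The closest patterns were not computed without letter A.

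Of the protein-coding neighbours, 0 were called by edgeR in RNA or RPF, where 1.14% and 4.83% of all genes were called. Siglece was not tested, nor Dpm1 in RPF. Cercam in RNA and Cercam and Rnf166 in RPF had an edgeR unadjusted p under 0.05, as did 12.4% and 23.1% of all genes. Romo1, beside Nfs1, was at a log2 value of 0.14 (SE 0.47, edgeR adjusted p = 0.958) in RNA, and its letter A libraries were again high, with 1522 and 1769 reads beside 448 to 706 in B and C. Piezo1, whose 3' part lies under Ctu2, was at 0.53 (SE 0.53, edgeR adjusted p = 0.797) in RNA, with 947 reads in shControl A beside 2824 or more in the 5 other RNA libraries. Txndc12, around Kti12, was at -0.38 (SE 0.24, edgeR adjusted p = 0.614) in RNA. Rnf166, beside Ctu2, was at 0.77 (SE 0.26, edgeR adjusted p = 0.126) in RPF.

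Genes that work with the members were read from 8 lists of 39 genes, of which 38 passed the filter in both fractions. In RNA 0 of 38 were called by edgeR (1.14% of all genes were), 3 had an unadjusted p under 0.05 (12.4% of all genes) and the median was 0.06. With letters B and C only 2 were called in RNA, Trmu (0.62) and Iscu (0.53), where 19.4% of all genes were. In RPF 1 rose and 0 fell (1.77% and 3.06% of all genes did), 7 had an unadjusted p under 0.05 (23.1% of all genes) and the median was 0.16. That count of 1 was 0 without any 1 RPF library other than shControl A and 4 without shControl A (Iscu, Thumpd3, Mocs2 and Ikbkap, the Elongator scaffold). It was 2 by DESeq2 (Iscu and Thumpd3) and 5 with letters B and C only (those 4 and Csnk1e), where 21.7% of all genes were called. The shares of all genes called by DESeq2 or with 1 library left out were not computed. In TE 0 were called by edgeR, 0 had an unadjusted p under 0.05 and the median was 0.03. The gene that rose was Iscu, the scaffold on which sulfur from NFS1 is built into iron-sulfur clusters. Iscu RPF was at 20.9, 22.0 and 22.3 CPM in shControl and 42.3, 43.5 and 32.4 in shElp3, with no overlap (log2 fold change 0.86, SE 0.16, edgeR adjusted p = 0.0345). Its call ended when any 1 library other than shControl A was left out (adjusted p of 0.0801 to 0.174, at values of 0.78 to 0.98). Its RNA was at 65.7, 30.8 and 37.7 CPM in shControl and 81.2, 52.2 and 46.8 in shElp3, with overlap.

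The list of iron-sulfur and sulfur relay genes had 8 members tested and a median of 0.27 in RPF and 0.06 in RNA, and Isca2 was at 0.46 (SE 0.15, edgeR adjusted p = 0.116) in RPF. Of the 6 methyltransferase partners of TRMT112, 0 were called in RNA or RPF, with medians of 0.11 and 0.05. Thumpd3, a tRNA guanosine methyltransferase, was the nearest to the threshold, at 0.51 (SE 0.13, edgeR adjusted p = 0.0692) in RPF, opposite in sign to Trmt112. The 5 other Elongator subunits had medians of 0.01 in RNA and -0.13 in RPF, with Elp6 at -0.41 (SE 0.18, edgeR adjusted p = 0.208) in RPF. The mitochondrial U34 genes, which act on mitochondrial tRNAs, had 3 members and medians of 0.47 in RNA and 0.26 in RPF, with the thiolase Trmu at 0.67 (SE 0.26, edgeR adjusted p = 0.350) in RNA and none called.

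The diphthamide list, the other pathway of DPH3, had 7 members and medians of 0.13 in RNA and 0.21 in RPF, with Dph1 at 0.74 (SE 0.31, edgeR adjusted p = 0.381) in RNA. The molybdenum cofactor list, the other pathway of MOCS3, had 3 members and medians of 0.06 and 0.24, with Mocs2 at 0.47 (SE 0.17, edgeR adjusted p = 0.159) in RPF. Of the 6 kinase and phosphatase genes related to yeast regulators of Elongator, Csnk1e was at -0.48 (SE 0.20, edgeR adjusted p = 0.382) in RNA and -0.54 (SE 0.18, edgeR adjusted p = 0.122) in RPF, and the medians were -0.18 and -0.14. The ALKBH8 relative Trmt9b, listed under 6430573F11Rik, had 0 or 1 read in every library and was not tested. In shControl cells 10 of the 38 were higher and 9 lower in footprints relative to RNA, beside 15.8% and 20.7% of all genes. The total of 19 was 11 without culture B, 10 without culture C and 20 without culture A, and the shares of all genes called in these settings were not computed. Among them were Elp2 (1.48, SE 0.16), Lyrm4, the small partner of NFS1 (1.81, SE 0.27), and Mettl5 (1.74, SE 0.32) on the higher side, and the mitochondrial U34 enzyme Gtpbp3 (-2.10, SE 0.26) and Eef2 (-1.82, SE 0.29) on the lower side (edgeR adjusted p of 0.0016 or less for each).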

How the data were processed

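Ribosome-protected fragments and total RNA of B16 cells, taken as 6 cultures by shRNA and letter, were measured in 12 libraries. Per the labels' protocols the kit was TruSeq Ribo Profile (Mammalian). The authors deposited raw counts, whole numbers of reads for each gene symbol. The tools named are HTSeq, TopHat2 2.1.1, Bowtie and bcl2fastq and the build mm10, per the submitters' processing notes. Annotation, strand setting and counted feature: not given in the sources used here. Rows that name no gene: 0.

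Groups came from the labels, and the members and lists were chosen with earlier results of these data known. The filter was filterByExpr (minimum count 10) in each fraction, passed in both for TE and for RPF against RNA. Libraries were scaled by TMM and tested with edgeR 4.0.16 (glmQLFit, glmQLFTest, R 4.3.3) on the whole table, with Benjamini-Hochberg adjustment and a threshold of 0.05. An SE is the log2 fold change divided by the root of F. RPF against RNA in shControl is the fraction term of the interaction model. Named were all members, Elp3, called list genes, the list genes of lowest p, the closest patterns and the neighbours. Closest patterns used log2 of CPM plus 0.5. The code was tested on simulated data. Alternatives were DESeq2 1.42.0, RLE scaling, no filter, replicate blocks, letters B and C only and leaving out each library. The protein sequences were not used here.

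Deviations from group means correlated across genes between same-letter libraries of the 2 shRNAs at r of 0.82 (A), 0.45 (B) and 0.60 (C) in RNA. In TE these values were 0.79, 0.49 and 0.51, so by the rule of 0.1 the letters pair in both. However, shControl B with shElp3 C (0.71 in RNA, 0.55 in TE) and C with B (0.60 and 0.61) were as high. These values set A apart from B and C but do not tell B from C. The RPF values of 0.34, -0.11 and 0.22 did not meet the rule.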

Additional observations from a re-analysis of the deposited data

How the results depend on the processing

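Member calls depended on letter A and the block. In RNA the block raised the share of all genes called by edgeR from 1.14% to 12.2%. With the replicate block 1 member was called in RNA (Mocs3, 0.94), with letters B and C only 1 in RNA (Alkbh8) and 2 in RPF (Trmt112 and Urm1), against 0 in each with all libraries and no block. The block changed no other call of a member in RNA, RPF or TE, where 0 were called in TE under every alternative. For RPF against RNA in shControl the count was 2 and became 0 without any 1 shControl culture (range 0 to 0), and 3 with the culture as a block, an alternative chosen after seeing the data. Of the member values under alternatives, 16 of 99 changed sign in RNA, 7 of 99 in RPF, 9 of 108 in TE and 3 of 81 in RPF against RNA. The causes were not tested. Outside leave-one-out these were Trmt112 in RNA with DESeq2 (-0.00037) and with no filter (-0.0034), and with letters B and C only Urm1 (0.16) and Dph3 (0.022) in RNA, Ctu1 in TE (0.12), and Ctu1 (0.044) and Nfs1 (0.015) in RPF against RNA. Leaving out 1 library at a time gave ranges in RNA of -0.13 to 0.10 (Trmt112), -0.15 to 0.29 (Ctu1), -0.36 to 0.36 (Urm1), -0.018 to 0.46 (Nfs1), -0.16 to 0.077 (Kti12) and -0.45 to 0.39 (Dph3). In RPF they were -0.16 to 0.059 (Alkbh8), -0.14 to 0.17 (Ctu1), -0.032 to 3.68 (Urm1) and -0.00025 to 0.39 (Dph3). In TE, leaving out 1 culture gave -0.28 to 0.27 (Ctu1), -0.30 to 0.11 (Ctu2), -0.066 to 4.01 (Urm1), -0.30 to 0.20 (Nfs1) and -0.077 to 0.45 (Dph3), and in RPF against RNA -0.27 to 0.023 (Ctu1). The counts of list genes called moved with the libraries left out, from 0 to 4 in RPF and from 10 to 20 in RPF against RNA, and stayed at 0 in RNA and TE. Correlations without letter A or without the Urm1 library were also chosen after seeing the data. Footprint reads of Mocs3, Ctu1, Kti12 and Dph3 were 119 or fewer per library, which limits the precision of their ratios.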
